A study of Mus musculus with 23 samples.

Results

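Sost, Dmp1, Mepe, Fgf23, Phex, Pdpn, and Fbln7 are 7 genes of the osteocyte, the cell that lies within mineralized bone. They were taken by gene symbol from the deposited TPM table (a level per transcript length) and matched by gene ID to the count table. They were 7 of 67228 gene entries. All 7 reached 10 counts in 5 or more mice, as did 14364 genes in all, and these were tested. RNA came from femur and tibia of 1 hind limb of 23 female C57BL6/N mice at 11 weeks of age, after the marrow had been spun out. WT Control (n = 5) and KO Control (n = 6) mice had received saline. WT T1D (n = 6) and KO T1D (n = 6) mice had received streptozotocin at 100 mg/kg from 8 weeks of age, so that diabetes had lasted 3 weeks. KO mice were labelled Sarm1-KO, a deletion of Sarm1 in all tissues. Streptozotocin is a β cell toxin, so this model of T1D has no autoimmune onset. The comparisons asked whether osteocyte transcripts differed with diabetes, and whether that difference depended on the genotype.

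Osteocytes are formed when osteoblasts become embedded in the matrix they make. They regulate bone by secreting sclerostin (encoded by Sost), which binds Wnt coreceptors and restrains osteoblasts, and FGF23, a hormone that acts on the kidney to lower phosphate and active vitamin D. The endopeptidase PHEX and the matrix proteins DMP1 and MEPE take part in mineralization, and loss of PHEX or DMP1 raises FGF23. Podoplanin (Pdpn) is an early marker of the embedding osteocyte and is also made by lymphatic endothelium, and fibulin 7 (Fbln7) is a secreted matrix glycoprotein.

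Libraries held from 16938101 to 20135592 counts. Values below are CPM, a count scaled to library size, after TMM normalization unless TPM is named. Sarm1 had from 6 to 32 counts in WT mice and from 5 to 29 in mice labelled Sarm1-KO, and did not separate the genotypes. Gene-level counts do not show which exons were read, so this does not check the deletion. Mouse IDs fell into a series A17 (1 WT Control and 3 WT T1D mice) and a series A36 to A39, which held all the mice labelled Sarm1-KO. Within A36 to A39, mice labelled Sarm1-KO were A3670 to A3683 and A3766. WT mice there were A3767 and A3903 to A3909, so ID and genotype largely went together. What the series stand for is not given in the sources used here. WT T1D mice A3905 and A3906 stood apart from all others. The summed CPM of 10 osteoblast markers was 9593 and 7638 in them and at least 61139 elsewhere. In WT Control this sum was mostly Col1a1 and Col1a2 (means 48456 and 31590 CPM). With T1D in WT mice, 9 of the 10 had a negative log2 fold change and 1, Spp1, a positive one. Spp1 was 2526 and 2246.5 CPM in A3905 and A3906 against a WT Control mean of 769.6. In the same mice 13 erythroid markers summed to 239560 and 234770, against at most 180930 elsewhere, and 7 osteoclast markers summed to 4330 and 4635, against at most 2948.

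**Figure D1:**
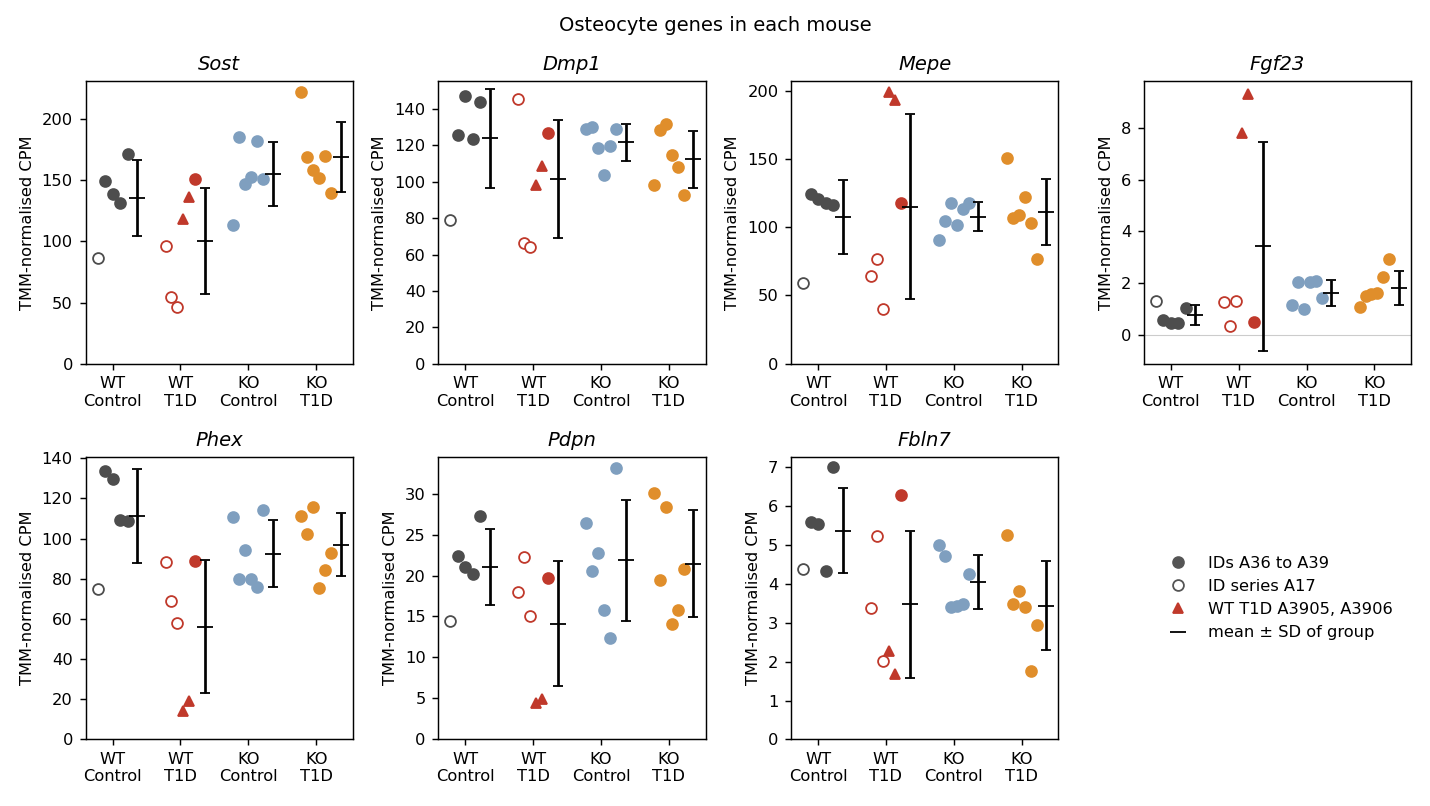
TMM-normalised CPM (linear axes) of each osteocyte gene in the 23 mice, by group. Points are mice, open points the A17 series, triangles WT T1D mice A3905 and A3906, and bars mean ± SD. In these 2 mice Phex is 14.2 and 19.0 CPM and Fgf23 7.81 and 9.31 CPM, and the SD of Fgf23 in WT T1D exceeds its mean.

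Before any comparison, the 7 genes differed widely in abundance. On the TPM scale the order of mean levels in WT Control was Sost (101 ± 26.6, SD, n = 5), Mepe (99.3 ± 28.6), Dmp1 (68.4 ± 17.8), Phex (26.7 ± 6.87), Pdpn (17.7 ± 4.42), Fbln7 (3.28 ± 1.12), and Fgf23 (0.458 ± 0.172). The ranges of Sost, Mepe, and Dmp1 overlapped, as did those of Phex and Pdpn. Every WT Control mouse had less Phex than any had Dmp1, less Fbln7 than any had Pdpn, and less Fgf23 than any had Fbln7. In KO Control the order of means was the same, with Sost at 111 ± 17.7 (SD, n = 6) and Fgf23 at 0.890 ± 0.272 TPM. In WT T1D mice A3905 and A3906 the low end of this order was different. Fgf23 reached 3.05 and 3.77 TPM there, above Fbln7 (0.930 and 0.630), Pdpn (2.60 and 3.00), and Phex (2.34 and 3.26) of the same mouse. Fgf23 exceeded Phex in no other mouse.

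The genes lie on 6 chromosomes of GRCm38.p6. Dmp1 (chr5:104197575-104214102) and Mepe (chr5:104325329-104338611) are both on the plus strand, 111.2 kb apart. Fgf23 is at chr6:127072902-127082296, Phex at chrX:157162075-157415286, Pdpn at chr4:143267409-143299564, and Fbln7 at chr2:128863865-128897034. Sost (chr11:101962458-101967015) shares its chromosome with Sarm1 (chr11:78470273-78497816). The 250 bases before the start of 4 genes are printed from RefSeq on GRCm38.p6, since Mepe and Fgf23 were high, and Phex and Pdpn low, in the same mice. Capitals mark matches, on either strand, to 3 motifs. The core of a RUNX site was searched as TGTGGT. A MEF2 site was searched as CTANNNNTAG, and the box at which many promoters bind the general factor TBP as TATAAA.
Mepe (chr5:104325079-104325328, plus strand): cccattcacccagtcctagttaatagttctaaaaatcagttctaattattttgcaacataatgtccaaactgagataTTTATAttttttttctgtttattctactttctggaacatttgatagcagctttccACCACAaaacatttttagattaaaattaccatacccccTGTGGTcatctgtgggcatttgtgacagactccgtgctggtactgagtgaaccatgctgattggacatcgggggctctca
Fgf23 (chr6:127072652-127072901, plus strand): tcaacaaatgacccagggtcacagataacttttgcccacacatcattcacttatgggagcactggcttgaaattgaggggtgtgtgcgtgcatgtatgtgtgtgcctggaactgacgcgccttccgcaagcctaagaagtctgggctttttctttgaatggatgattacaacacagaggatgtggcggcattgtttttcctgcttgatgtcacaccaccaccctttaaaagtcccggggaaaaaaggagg
Phex (chrX:157415287-157415536, minus strand): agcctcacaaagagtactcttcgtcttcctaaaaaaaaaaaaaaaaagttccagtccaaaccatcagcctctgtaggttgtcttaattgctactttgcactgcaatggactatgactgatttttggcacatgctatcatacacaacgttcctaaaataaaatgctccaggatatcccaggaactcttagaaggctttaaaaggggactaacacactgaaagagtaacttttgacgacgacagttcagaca
Pdpn (chr4:143299565-143299814, minus strand): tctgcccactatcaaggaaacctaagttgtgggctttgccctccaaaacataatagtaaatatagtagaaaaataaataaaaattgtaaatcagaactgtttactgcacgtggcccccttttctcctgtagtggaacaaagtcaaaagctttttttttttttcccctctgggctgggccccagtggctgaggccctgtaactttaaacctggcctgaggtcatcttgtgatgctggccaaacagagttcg
Mepe held the RUNX core 2 times, once per strand, and the TBP box 1 time on the opposite strand, with no overlap between them. The windows of Fgf23, Phex, and Pdpn had none of the 3 motifs, which says only that these letters were not found there. Of 32851 windows of this length, 14.0% held the RUNX core, 12.4% the TBP box, and 3.2% the MEF2 site.

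With T1D in WT mice, 0 of the 7 genes passed an adjusted p of 0.05 in edgeR's quasi-likelihood test with Benjamini-Hochberg adjustment. Across all genes tested, 334 passed, or 2.33%, and without A3905 and A3906 0 genes passed (1575 at an unadjusted p under 0.05). In edgeR 0 genes also passed without WT Control mouse A3767 (2810 at an unadjusted p under 0.05), without WT Control mouse A3907 (2512), and with only the groups compared in the fit (2336). At an unadjusted p under 0.05 there were 3 of 7 (Fgf23, Phex, and Fbln7), and 22.2% of all genes. The highest estimate was that of Fgf23 and the lowest that of Phex. The median log2 fold change of all genes was -0.01.

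Sost had 86.1, 149, 139, 132, and 171 CPM in the 5 WT Control mice. In WT T1D the lowest was 46.2, the median 107, and the highest 151 CPM. The groups overlapped, and 2 of the 6 diabetic mice, A1764 and A1787, had less Sost than any WT Control mouse. The log2 fold change was -0.43 ± 0.23 (SE, adjusted p = 0.287). In CPM, the A17 mice had the lowest Sost values of the 23 mice. Of these, 3 were diabetic and 1 was not, so series and diabetes were not separated. The 3 WT T1D mice of the A17 series had 46.2, 54.3, and 96.2 CPM and the A17 WT Control mouse had 86.1. The 3 other WT T1D mice had from 118 to 151 CPM and the 4 other WT Control mice from 132 to 171. In TPM, A3905 and A3906 were at 61.0 and 73.0, below the 4 other WT Control mice (95.4 to 127). Among A36 to A39 mice alone the log2 fold change was -0.11 (adjusted p = 0.661), and without A3905 and A3906 it was -0.64 (adjusted p = 0.363).

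Fgf23 was the scarcest member. WT Control mice had 1.31, 0.603, 0.452, 0.451, and 1.05 CPM, from 8 to 24 counts. Of 8 counts, an exact Poisson interval of 95% runs from 3.45 to 15.8 counts, for counting error only. WT T1D mice ranged from 0.338 CPM through a median of 1.28 to 9.31 CPM. The 2 highest were A3905 (7.81 CPM, 138 counts) and A3906 (9.31 CPM, 161 counts), which were 10.1 and 12.0 times the WT Control mean. The other 4 WT T1D mice lay between 0.338 and 1.31 CPM, no higher than the WT Control maximum. The log2 fold change was 2.13 ± 0.65 (SE, adjusted p = 0.0663), and larger than that of 99.9% of the genes tested. It was 3.20 among A36 to A39 mice (adjusted p = 0.00833, where 15.4% of all genes passed) and 0.13 without A3905 and A3906 (adjusted p = 0.948). DESeq2 gave 2.15 (adjusted p = 0.0132, where 6.98% of all genes passed). In edgeR Fgf23 passed the threshold without A1764 (2.37), A1758 (2.32), or A3909 (2.36). In these 3 fits 6.53%, 3.75%, and 8.8% of all genes passed.

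Of the matrix proteins, Dmp1 had 79.1, 125.5, 147, 123, and 144 CPM in WT Control. In WT T1D it ranged from 64.3 through a median of 103 to 146 CPM. Dmp1 in A3905 (98.1) and A3906 (109) lay inside the WT Control range. Both were below the 4 WT Control mice of A36 to A39 (123 to 147). In TPM they had 37.5 and 43.1, against 39.4 in the A17 WT Control mouse and 66.3 to 85.5 in the 4 others. The 2 mice below the WT Control range in CPM, A1764 and A1787, were of the A17 series. The log2 fold change of Dmp1 with T1D was -0.28 ± 0.18 (SE, adjusted p = 0.350). It was -0.27 among A36 to A39 mice (adjusted p = 0.144) and -0.30 without A3905 and A3906 (adjusted p = 0.610).

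Mepe, encoded near Dmp1, had 58.9, 124, 120.4, 118, and 116 CPM in WT Control, where the lowest was again the A17 mouse. In WT T1D the lowest value was 39.8, the median 97.2, and the highest 199 CPM. WT T1D mice went both ways. A3905 (199) and A3906 (193) had the 2 highest Mepe values of the 23 mice, and the 3 A17 mice (39.8, 64.2, and 76.5) had 3 of the 4 lowest. The log2 fold change of 0.10 ± 0.29 (SE, adjusted p = 0.883) therefore averaged opposite values. It was 0.52 among A36 to A39 mice (adjusted p = 0.0519) and -0.53 without A3905 and A3906 (adjusted p = 0.401). On the log2 (TPM + 1) scale, where the median of all genes was -0.24, it was -0.37.

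Phex had 74.9, 134, 129.7, 109, and 109 CPM in WT Control. In WT T1D it ranged from 14.2 through a median of 63.4 to 88.7 CPM. Of the 6 diabetic mice 4 had less Phex than any control, and the other two had more than the A17 WT Control mouse. A3905 (14.2) and A3906 (19.0) had 0.127 and 0.170 times the WT Control mean, and the other 4 from 0.520 to 0.797 times. Each of the 6 was thus below the control mean. The log2 fold change was -0.99 ± 0.32 (SE, adjusted p = 0.0796). It was -1.56 among A36 to A39 mice (adjusted p = 0.0191, where 15.4% of all genes passed). Without A3905 and A3906 it was -0.55 (adjusted p = 0.289). It passed the threshold without A1758 (-1.15) or A3909 (-1.16), where 3.75% and 8.8% of all genes passed.

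Pdpn had 14.4, 22.4, 21.0, 20.2, and 27.3 CPM in WT Control, and ranged from 4.47 through a median of 16.5 to 22.3 CPM in WT T1D. The 2 mice below the WT Control range were A3905 (4.47) and A3906 (4.97). Pdpn had a log2 fold change of -0.58 ± 0.33 (SE, adjusted p = 0.313). It was -1.21 among A36 to A39 mice (adjusted p = 0.0538) and -0.17 without A3905 and A3906 (adjusted p = 0.854). The 4 markers of lymphatic endothelium, which also carries podoplanin, summed to 65.7 and 51.0 CPM in A3905 and A3906 and to between 38.8 and 65.9 CPM in WT Control.

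Fbln7 had 4.38, 5.59, 5.54, 4.34, and 6.998 CPM in WT Control, and ranged from 1.68 through a median of 2.82 to 6.28 CPM in WT T1D. Of the 6 diabetic mice 4 had less Fbln7 than any control, and 2 of these were A17 mice. Fbln7 had a log2 fold change of -0.63 ± 0.29 (SE, adjusted p = 0.203). It was -0.71 among A36 to A39 mice (adjusted p = 0.186) and -0.35 without A3905 and A3906 (adjusted p = 0.691). Without A3909 it was -0.88 (adjusted p = 0.0494 in edgeR, where 8.8% of all genes passed).

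**Figure D2:**
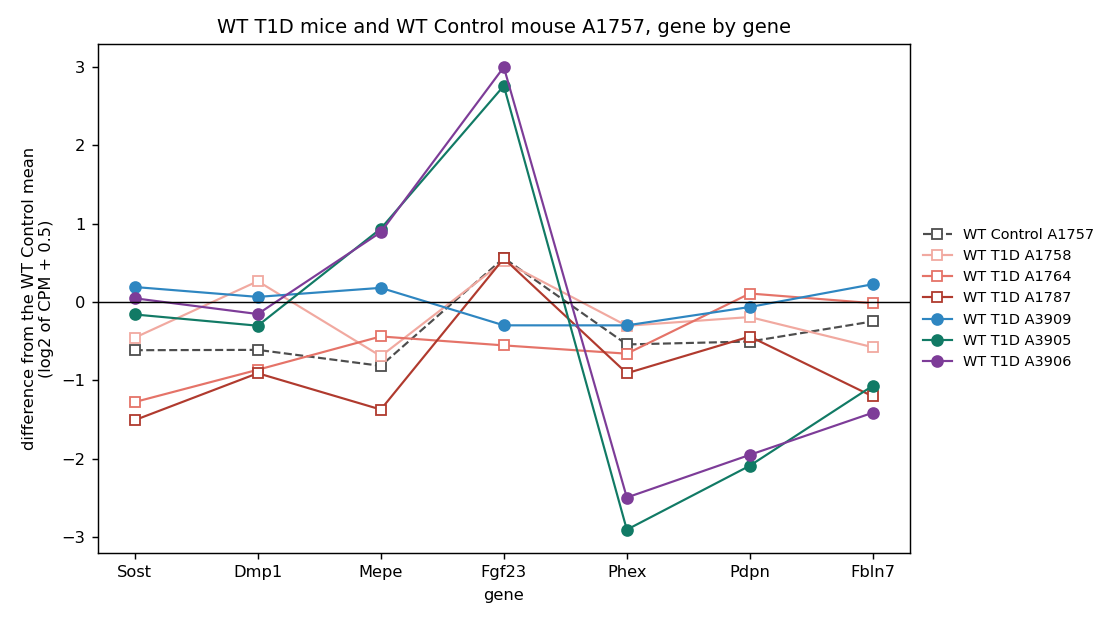
Difference of each WT T1D mouse, and of the A17 WT Control mouse A1757 (dashed), from the WT Control mean on the log2 (CPM + 0.5) scale, for the 7 genes on the x axis. A3905 and A3906 run together, with Fgf23 at 2.76 and 3.00 and Phex at -2.90 and -2.49. The A17 mice (open squares), 3 diabetic and 1 Control, are low in Sost and Mepe.

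Set side by side, the 7 genes did not move as 1 group in WT T1D mice. In A3905 and A3906, Mepe was 0.94 and 0.89 above the WT Control mean on the log2 (CPM + 0.5) scale, and Sost was -0.16 and 0.05 from it. Phex was -2.90 and -2.49, Pdpn -2.09 and -1.95, and Fbln7 -1.07 and -1.41 from the mean. Osteocyte genes at their usual level or above it were therefore found beside osteocyte genes far below it in the same mice. Col1a1, the main bone collagen, had 3018 and 2215 CPM there, against a WT Control mean of 48456. In bulk bone, fewer cells of a type and less RNA per cell cannot be told apart, and the part of the low osteoblast and high erythroid signal in these values was not tested. Calls also differed with limma on log2 (TPM + 1), which changes both the scale and the test. There 35.9% of all genes passed and their median was -0.24, and 5 of 7 members passed with T1D in WT mice. These were Phex (-1.41), Pdpn (-0.97), Sost (-0.80), Fbln7 (-0.76), and Dmp1 (-0.60). Fgf23 was at 0.50 (adjusted p = 0.146) and, with limma on log2 (TPM + 0.1), at 0.77 (adjusted p = 0.220). A pseudocount of 1 TPM shrinks differences of low genes. At 0.1 TPM the Fgf23 estimate was still below the 2.13 of edgeR, and the reason was not tested. Sost in A3905 and A3906, within the WT Control range in CPM, was 61.0 and 73.0 TPM, near the A17 WT Control mouse (57.8) and below the 4 others (95.4 to 127). The remaining A36 to A39 mouse with T1D, A3909, was between -0.30 and 0.23 for all 7 genes. The A17 WT Control mouse was -0.61 for Sost, -0.61 for Dmp1, and -0.81 for Mepe, and the A17 WT T1D mice were from -1.51 to -0.45 for Sost and from -1.37 to -0.44 for Mepe. The A17 series has 1 Control mouse, so within it diabetes could not be compared with an estimate of spread among controls.

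With T1D in mice labelled Sarm1-KO, 0 of 7 genes passed the adjusted threshold, as did 0% of all genes, and 0 of 7 had an unadjusted p under 0.05, against 3.15% of all genes. The lowest adjusted p of any gene in edgeR was 0.797, and DESeq2 also called 0 genes. Sost ranged from 113 through a median of 152 to 185 CPM in KO Control and from 139.6 through 164 to 222 CPM in KO T1D (log2 fold change 0.12 ± 0.22, SE). Fgf23 ranged from 0.992 through 1.75 to 2.10 CPM and from 1.08 through 1.59 to 2.93 CPM (0.16 ± 0.58, SE). The groups overlapped for both hormones. Dmp1 ranged from 104 through 124 to 130.1 CPM in KO Control and from 92.8 through 112 to 132 CPM in KO T1D (-0.12 ± 0.17, SE). Mepe ranged from 90.9 through 109 to 118 CPM and from 77.1 through 108 to 150.4 CPM (0.05 ± 0.28, SE). Neither matrix protein differed beyond the spread between mice. Phex ranged from 75.9 through 87.2 to 114 CPM and from 75.6 through 97.4 to 116 CPM (0.07 ± 0.30, SE). Pdpn ranged from 12.4 through 21.7 to 33.1 CPM and from 14.1 through 20.1 to 30.1 CPM (-0.03 ± 0.32, SE). Fbln7 ranged from 3.42 through 3.87 to 4.99 CPM and from 1.75 through 3.44 to 5.25 CPM (-0.24 ± 0.28, SE). All 7 genes overlapped between the groups. No Phex value in the 12 mice labelled Sarm1-KO was below 75.6 CPM and no Fgf23 value was above 2.93 CPM. Intervals of 2 SE around these log2 fold changes ran from -0.33 to 0.57 for Sost and from -0.54 to 0.68 for Phex. For Fgf23 the interval ran from -1.001 to 1.31. With this number of mice, differences as large as the ends of these intervals were not excluded.

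The difference between the genotypes in the response to T1D was tested directly as an interaction. It passed the adjusted threshold for 0 of 7 genes and 0% of all genes. At an unadjusted p under 0.05 there were 2 of 7 (Fgf23 and Phex), and 10.2% of all genes. The interaction was -1.98 ± 0.86 (SE) for Fgf23 and 1.05 ± 0.44 (SE) for Phex on the log2 scale, with an adjusted p of 0.479 for each. For Sost it was 0.55 ± 0.32 (SE, adjusted p = 0.546) and for Pdpn 0.55 ± 0.46 (SE, adjusted p = 0.669). Without A3905 and A3906 the interaction was 0.02 for Fgf23 and 0.62 for Phex, and among A36 to A39 mice it was -3.05 (adjusted p = 0.0786) and 1.62 (adjusted p = 0.0987). The distance between WT and labelled Sarm1-KO mice in the Fgf23 response therefore rested on those 2 mice.

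Without diabetes, KO Control and WT Control differed at the adjusted threshold in 0 of 7 genes, against 0.0278% of all genes, and 0 of 7 had an unadjusted p under 0.05, against 4.8%. Fgf23 had the largest estimate, 1.07 ± 0.65 (SE, adjusted p = 0.999), and 4 of 6 KO Control mice were above every WT Control mouse. Fbln7 was at -0.41 ± 0.29 (SE, adjusted p = 0.999), with 4 of 6 KO Control mice below every WT Control mouse. The estimates of the other 5 genes lay between -0.27 and 0.20. Sost, on the same chromosome as Sarm1, was at 0.20 ± 0.24 (SE).

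With diabetes, KO T1D and WT T1D differed at the adjusted threshold in 0 of 7 genes, against 0.0905% of all genes. At an unadjusted p under 0.05 there were 2 of 7 (Sost and Phex), against 17.1%. Sost was 0.75 ± 0.23 higher on the log2 scale in KO T1D (SE, adjusted p = 0.142), and 5 of 6 KO T1D mice were above every WT T1D mouse. Among A36 to A39 mice the Sost estimate was 0.31 (adjusted p = 0.180), and the 3 lowest WT T1D values were those of A17 mice. Phex was at 0.79 ± 0.31 (SE, adjusted p = 0.214), with 4 of 6 KO T1D mice above every WT T1D mouse, and at 0.35 without A3905 and A3906. Among A36 to A39 mice 3 genes passed the threshold, against 10.7% of all genes: Phex at 1.25 (adjusted p = 0.0424), Fgf23 at -1.70 (adjusted p = 0.0385), and Mepe at -0.62 (adjusted p = 0.0240). That comparison set WT T1D mice with A39 IDs against KO T1D mice with A36 IDs, so genotype and ID could not be told apart. WT T1D had 3 mice there, of which 2 were A3905 and A3906. Without these 2 mice Fgf23 was at 1.09 and Mepe at 0.58, in the other direction and past no threshold. The comparisons share groups, so their values are not independent.

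**Figure D3:**
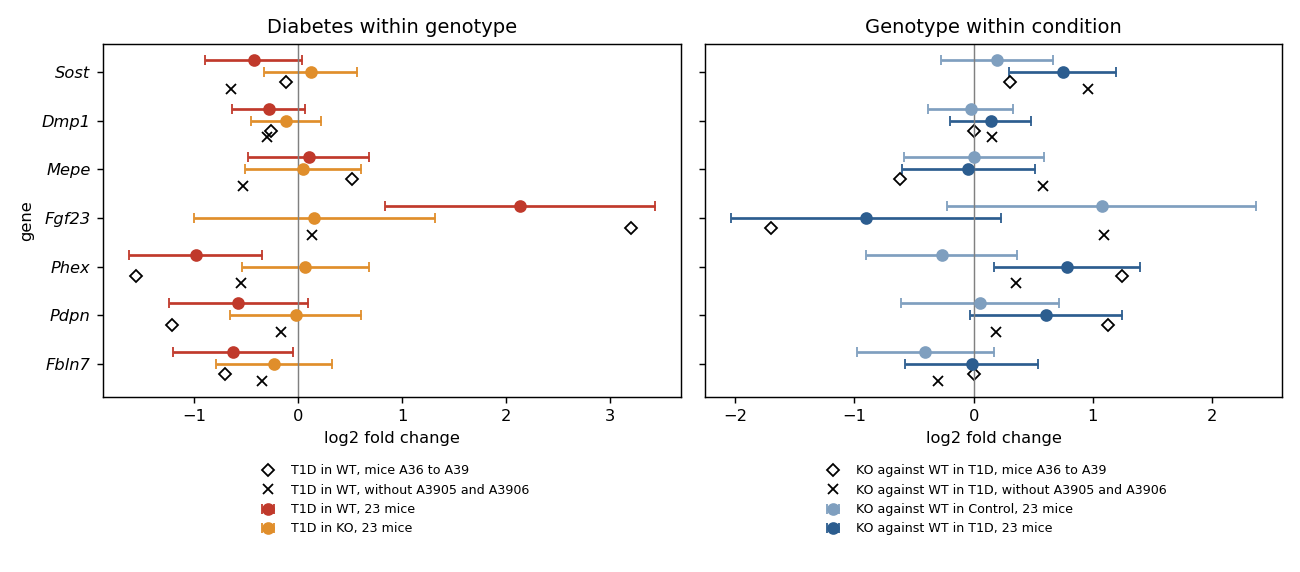
Log2 fold change (x axis) of each gene with T1D in WT and in KO mice (left) and of KO against WT mice in Control and in T1D (right), from edgeR with 23 mice. Bars are 2 SE, diamonds the A36 to A39 mice and crosses all mice without A3905 and A3906. Fgf23 with T1D in WT mice lies at 2.13 with all mice, 3.20 among A36 to A39 mice, and 0.13 without the 2 mice.

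Genes around sclerostin in the Wnt pathway were read alongside Sost. Of 17 tested genes of this list, 1 fell with T1D in WT mice, 0 rose, and 16 passed no threshold, with a median log2 fold change of -0.43. The gene that fell was Dkk1, another secreted Wnt antagonist, at -0.96 ± 0.19 (SE, adjusted p = 0.0236). Its mean level was 19.8 CPM in WT Control and 10.2 CPM in WT T1D, and 17.2 and 17.8 CPM in KO Control and KO T1D. Wnt7b, a Wnt ligand, was at -0.78 ± 0.64 and Notum, a secreted Wnt deacylase, at -0.60 ± 0.35 (SE). In mice labelled Sarm1-KO 0 of 17 passed, with a median of 0.01. The share of all genes that passed, for this and the lists below, was 2.33% with T1D in WT mice and 0% in mice labelled Sarm1-KO. The Dkk1 call, like those of Ibsp, Runx2, and the erythroid markers below, was lost without A3905 and A3906, and also without A3767, without A3907, and with only the groups compared in the fit, where 0 of all genes passed each time.

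Genes that process FGF23 or handle phosphate were read alongside Fgf23 and Phex. Of 15 tested genes, 0 passed in either direction with T1D in WT mice, with a median of -0.39, and 0 passed in mice labelled Sarm1-KO, with a median of 0.02. The largest estimates in WT were those of Pth1r, the receptor for parathyroid hormone (-0.88 ± 0.26, SE, adjusted p = 0.0617), Alpl, the phosphatase of mineralizing cells (-0.75 ± 0.35), and Pcsk5, a proprotein convertase (-0.67 ± 0.33). Pth1r had 38.4 and 26.1 CPM in A3905 and A3906, against a WT Control mean of 143. Kl, Cyp27b1, and Cyp24a1, which act mainly in the kidney, were listed but had too few counts to test.

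Of the other matrix proteins of the chromosome 5 cluster, Ibsp (bone sialoprotein) fell with T1D in WT mice by 0.78 ± 0.15 on the log2 scale (SE, adjusted p = 0.0236). It was at -0.01 in mice labelled Sarm1-KO. Spp1 (osteopontin) was at 0.66 ± 0.32 in WT (SE, adjusted p = 0.230) and had 2526 and 2246.5 CPM in A3905 and A3906 against a WT Control mean of 769.6. Spp1 was thus high in the mice in which Mepe was high, and Ibsp low, at 607 and 565 CPM against a mean of 1325. Of 15 other osteocyte-enriched genes, 0 passed in WT (median -0.12) and 0 in mice labelled Sarm1-KO (median 0.01). In WT 10 of the 15 had a negative estimate and 5 a positive one, and the list shares Ctsk with the osteoclast markers. The largest estimates of the list in WT were those of Ptprz1 (-1.02 ± 0.32), the gap junction gene Gja1 (-0.75 ± 0.36), and the transcription factor Irx5 (-0.74 ± 0.25, SE). Of the 6 other fibulins 0 passed in either genotype, and Efemp2 had the largest estimate in WT (-0.60 ± 0.20, SE, adjusted p = 0.0911).

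**Figure D4:**
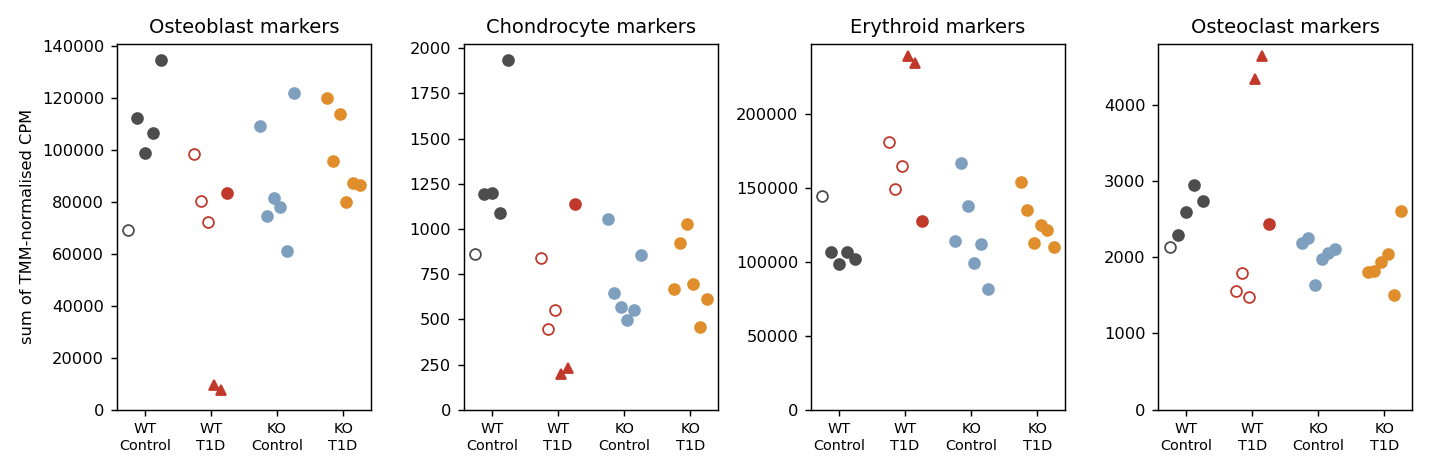
Summed TMM-normalised CPM (linear axes from 0) of osteoblast, chondrocyte, erythroid, and osteoclast markers in each mouse, by group. Open points are the A17 series and triangles WT T1D mice A3905 and A3906, in which osteoblast markers sum to 9593 and 7638 CPM and osteoclast markers to 4330 and 4635 CPM.

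The markers of other cells complete the picture of the WT T1D mice. Of 13 tested erythroid markers, 8 rose with T1D in WT mice (median 0.64), where 2.33% of all genes passed. In mice labelled Sarm1-KO 0 of 13 passed (median 0.06), as did 0% of all genes. Of 10 osteoblast markers, 2 fell in WT mice, Ibsp and the transcription factor Runx2, named after its values were seen (median -0.74), and 0 passed in mice labelled Sarm1-KO (median 0.05). Of 7 chondrocyte markers 0 passed (median -1.66 in WT), with Col10a1 at 0.736 and 0.347 CPM in A3905 and A3906 against a WT Control mean of 61.2. Of 7 osteoclast markers 0 passed (median 0.07 in WT). Their part in the values of the 7 osteocyte genes was not tested.

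Over the 23 mice, Spearman's rho of log2 (CPM + 0.5) between the members, a description in which mice share groups and libraries, was highest for Phex and Pdpn (0.80) and for Pdpn and Fbln7 (0.61). It was lowest for Fgf23 and Fbln7 (-0.71), and near 0 for Mepe and Fgf23 (-0.00). Among 13306 genes with a mean of at least 1 CPM, those most like Phex were Adamts14 (0.94), Pcsk6 (0.94), and Col11a1 (0.94). Those most like Pdpn were B3gnt9 (0.95), Tnfrsf19 (0.93), and Reck (0.92), and those most like Fbln7 included Zfp532 (0.88) and Ccdc157 (0.87). Those most like Fgf23 included Tnfrsf21 (0.86) and Eif3l (0.83). For Dmp1 they were Lgmn (0.86), Ephb4 (0.84), and Pdgfa (0.78), for Mepe Dmc1 (0.74), Wdfy1 (0.74), and Gnb1l (0.72), and for Sost Adprhl2 (0.75), Tmem184c (0.73), and As3mt (0.71). The 7 members shared none of these named genes.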

How the data were processed

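Bone RNA-Seq values were available for 23 mice, with 1 library per mouse and groups taken from the sample labels. The authors deposited an expected count per gene, estimated by RSEM, rounded to whole numbers and not normalised. They also deposited TPM values from the sequencing provider, which are relative to all transcripts of a library, so that a very abundant transcript lowers the others. SOAPnuke was the read filter, and HISAT and Bowtie2 were the aligners, on GRCm38.p6, per the submitters' processing notes and the study's methods.

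The fit used edgeR 4.0.16 in R 4.3.3, with TMM normalization, genes that reached 10 counts in 5 or more mice, 1 quasi-likelihood model of the 4 groups, and Benjamini-Hochberg adjustment over 14364 genes with a threshold of 0.05. SE was the log2 fold change over the square root of F. The pseudocount on the log2 scale was 0.5 CPM. Alternatives used DESeq2 1.42.0 and limma 3.58.1 (on TPM), other scalings, filters, and sets of mice. The series of the mouse ID as a term was added after the data were seen. No sample label sets A3905 and A3906 apart, so the setting without them rests on their values in these data. The procedure was also run on simulated counts, in which every gene had the same spread and only WT T1D was changed. That simulation held no outlying mice and no ID series, so it does not cover them. No 2 mice of a group, of 55 pairs, agreed within sampling noise (the chi-square per gene was 10.9 to 187). A p value of the main fit set a difference between groups against a spread between mice estimated per gene over the 4 groups together. The SD of Fgf23 was 4.03 CPM in WT T1D and from 0.389 to 0.655 CPM in the other groups.

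The 7 members and the gene lists were chosen with earlier results of these data known. Named genes were the members, the 3 genes most like each, and, of each list, the 3 with the largest change in WT. Outside this rule, Runx2 was named after its values were seen, and Sarm1 as the deleted gene. Kl, Cyp27b1, and Cyp24a1 were named for too few counts, and Ctsk as shared between lists. Some genes that met this rule are left out. Lists covered Wnt signaling, FGF23 and phosphate, other osteocyte genes, fibulins, the chromosome 5 matrix proteins, and cell type markers. Dspp and Ahsp were not analysed here. Positions and sequences came from RefSeq on GRCm38.p6, with all 7 members matched.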

Additional observations from a re-analysis of the deposited data

Results flagged for a closer look

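In WT Control, the A17 mouse A1757 lay apart from the 4 others in 2 of the 7 genes, and 28 combinations of gene and group were examined in all. Mepe was 58.9 CPM there (gap over range 0.913, critical value 0.71), and Dmp1 was 79.1 CPM (0.716). Chance gives such a flag in about 1 of 20 groups.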

How the results depend on the processing

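With T1D in WT mice, 0 of 7 genes passed the threshold with all mice. DESeq2 gave 1 (Fgf23, with 6.98% of all genes), the A36 to A39 mice 2 (Fgf23 and Phex, with 15.4%), and limma 5 on log2 (TPM + 1) and 5 on log2 (TPM + 0.1) (Sost, Dmp1, Phex, Pdpn, and Fbln7, each negative). On these TPM scales 35.9% and 36% of all genes passed and the median of all genes was -0.24 and -0.29. With single mice left out the count was 0 to 3, with 1 without A1764 (Fgf23), 2 without A1758 (Fgf23 and Phex), and 3 without A3909 (Fgf23, Phex, and Fbln7), where 6.53%, 3.75%, and 8.8% of all genes passed, against 2.33% with all mice. For KO against WT in T1D, limma gave 2 and 2 (Sost and Phex, with 8.12% and 8.25% of all genes) and the A36 to A39 mice 3 (with 10.7%), against 0.0905% with all mice. The 3 other comparisons gave 0 of 7 under every alternative run. Over all genes, T1D in WT gave from 0 to 5173 under the alternatives and from 0 to 1264 with 1 mouse left out, against 334.

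Estimates turned direction as follows. On log2 (TPM + 1), Mepe was -0.37 (T1D in WT), -0.019 (T1D in KO), 0.35 (interaction), and 0.35 (KO against WT in T1D), Pdpn -0.028 (KO against WT in Control), and Fbln7 0.16 (KO against WT in T1D). On log2 (TPM + 0.1), the same values were -0.37, -0.0195, 0.35, 0.36, -0.031, and 0.29, and Fgf23 was 0.16 (KO against WT in T1D). With total counts only, Mepe was 0.0042 and Fbln7 0.0078 (KO against WT in T1D). Among A36 to A39 mice, Mepe was -0.14 and Pdpn -0.050 (KO against WT in Control) and Fbln7 0.0040 (KO against WT in T1D). Without A3905 and A3906, Mepe was -0.53 (T1D in WT), 0.58 (interaction), and 0.58 (KO against WT in T1D), and Fgf23 0.018 (interaction) and 1.09 (KO against WT in T1D). With the ID series as a term, chosen after seeing the data, Mepe was -0.22 (KO against WT in Control) and Dmp1 -0.071 (KO against WT in T1D). The causes were not tested.

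With 1 mouse left out at a time, KO against WT in Control ranged from -0.15 to 0.044 for Dmp1, from -0.15 to 0.060 for Mepe, and from -0.10 to 0.17 for Pdpn. KO against WT in T1D ranged from -0.18 to 0.24 for Fbln7 and from -0.24 to 0.17 for Mepe. T1D in KO ranged from -0.029 to 0.26 for Fgf23, from -0.062 to 0.14 for Mepe, and from -0.15 to 0.13 for Pdpn. Mepe ranged from -0.24 to 0.16 for the interaction and from -0.12 to 0.28 for T1D in WT, where it turned without A1757, A3905, or A3906. With T1D in WT, Fgf23 ranged from 1.54 to 2.41 and Phex from -1.16 to -0.78. With both A3905 and A3906 left out, Fgf23 was 0.13 and Phex -0.55.

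No paired analysis was possible because no mouse number was shared between groups. Fgf23 could not be fitted with a minimum of 50 counts, which it did not reach in enough mice. Depth limited Fgf23 most, with 6 to 24 counts in WT mice other than A3905 and A3906.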

Other observations

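The marker lists of the remaining cell types had 0 genes past the threshold with T1D in either genotype. In WT mice the median log2 fold change was 0.19 for 8 neutrophil markers, -0.19 for 6 B cell markers, 0.13 for 8 skeletal muscle markers, 0.07 for 4 lymphatic endothelium markers, -0.21 for 4 blood endothelium markers, and 0.24 for 5 markers of marrow stroma and adipocytes. In mice labelled Sarm1-KO these medians were -0.01, 0.10, -0.45, -0.50, -0.11, and -0.09. Summed neutrophil markers were 45711 and 41364 CPM in WT T1D mice A3905 and A3906, and B cell markers 159 and 193 CPM, the 2 highest and the 2 lowest sums of the 23 mice.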
